A study of Mus musculus with 24 samples.

Results

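Smooth muscle cells and myofibroblasts of the lung pull on their surroundings with a shared set of contractile proteins, and 10 of the genes for these proteins were followed here: Acta2, Actg2, Myh11, Tagln, Cnn1, Lmod1, Des, Smtn, Myocd and Synpo2. The 10 genes were listed by name, and each has 1 entry among the 23416 genes of every table. They were measured by RNA sequencing of the whole left lung lobe in 24 mice, in 8 groups of 3 lungs. The study asked how Ror2 and Vangl2, members of a planar cell polarity cascade set off by Wnt5a, act in the forming alveoli.

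The mutants were Vangl2f/f; Sox9Cre/+ mice and Ror2f/f; Sox9Cre/+ mice, each taken on postnatal day 2 (P2) and postnatal day 5 (P5). Sox9Cre is active in the distal lung epithelium, so the floxed gene is targeted in epithelial cells and not in the smooth muscle cells or myofibroblasts in which the 10 genes are mainly expressed. The controls carry the genotype label WT, and each mutant had its own 3 controls at each age. Controls of the Vangl2 mutants are titled as controls for Vangl1/2. For Vangl2 mutants at P5 and Ror2 mutants at P2 the genotype field lists Ror2f/f and Vangl2f/f, respectively, against the sample title, and the title was used. Nothing in the labels ties a lung to a litter or says how the lungs were paired, and p-values therefore measure only the spread between these samples.

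Contraction rests on thin filaments of actin and thick filaments of smooth muscle myosin. In the newborn lung the genes mark airway smooth muscle, vascular smooth muscle and the myofibroblasts at the tips of the growing alveolar septa, which lay down elastin. Most of these genes are switched on by serum response factor (SRF), which binds a DNA element named the CArG box, together with its coactivator myocardin. In whole-lobe RNA, fewer contractile cells and less RNA per cell cannot be told apart.

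The targeted gene was only partly lower in the whole lobes. In the Vangl2 tables, Vangl2 had a mean of 277 ± 26.7 normalized counts (SD, n = 3) in P2 controls and 213 ± 35.3 in P2 mutants, and 325 ± 39.3 in P5 controls and 161 ± 11.7 in P5 mutants, with every mutant below every control at both ages. Ror2 in its own tables went from 517 ± 65.1 to 398 ± 70.8 at P2 and from 497 ± 118 to 441 ± 79.7 at P5, and the groups overlapped at both ages. Neither gene passed the threshold in its own tables (limma, adjusted p = 0.241 and 0.0604 for Vangl2, 0.25 and 0.692 for Ror2), but Vangl2 at P5 did with the replicate number as a block (adjusted p = 0.0194). Where the genotype field disagrees with the title, Ror2 was at 0.714 of the control level in P5 Vangl2 mutants and Vangl2 at 0.863 in P2 Ror2 mutants. Both overlapped between groups. In P2 Ror2 lungs Ror2 and Vangl2 each overlapped, so these values do not settle which gene was targeted there. Nor do they in P5 Ror2 mutants, where Ror2 was at 0.895 and Vangl2 at 0.821 of the control level and both overlapped. The lungs held between 16175700 and 21544225 recovered reads on genes where reads could be recovered, apart from P5 Ror2 control replicate 1. That lung held 13820885 reads and had 94.6% of its well-expressed genes on chromosomes 5 to 9 and X listed at 0 (71.5% on chromosome 5). Values on these chromosomes were set to missing in it, so Actg2, Tagln and Cnn1, which lie there, have 2 control values in the P5 Ror2 comparison.

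Per kilobase of exon, the order of the 10 genes in control lungs ran from the actin of smooth muscle to the regulator of the program. Acta2 (ENSMUSG00000035783.9), smooth muscle alpha-actin, lies on the minus strand of chromosome 19 at 34241090 to 34255590 (mm10, GENCODE M21) and had the highest level in all 4 sets of controls, at 7051 ± 1118 normalized counts per kilobase of merged exons (SD, n = 3) in the P2 Vangl2 controls. Tagln, the actin-binding protein transgelin, was next at 4607 ± 330, and Actg2, the gamma-actin of enteric smooth muscle, followed at 1271 ± 124. The 3 highest genes kept their order in every set of control means. In the P5 Vangl2 controls the ranges of Acta2 (3790 to 8658) and Tagln (3039 to 4700) overlapped.

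Below the actins and Tagln came 3 genes whose levels lay close together. Smtn, smoothelin, which binds actin in contractile smooth muscle, had 868 ± 61.4 normalized counts per kilobase in the P2 Vangl2 controls. Myh11, the heavy chain of smooth muscle myosin, had 701 ± 45.4 and Des, the muscle intermediate filament desmin, had 643 ± 46.0, and the ranges of Myh11 (657 to 748) and Des (613 to 695) overlapped. Cnn1, calponin, which binds actin and inhibits myosin, followed at 201 ± 9.29. The lowest 3 were Synpo2 (synaptopodin-2, an actin-bundling protein) at 53.1 ± 6.45, Lmod1 (leiomodin, which nucleates actin filaments in smooth muscle) at 53.0 ± 3.81 and Myocd (myocardin) at 44.9 ± 7.19, and their ranges overlapped in these lungs. Myocd had the lowest mean of the 10 in all 4 sets of controls. In the P5 Vangl2 controls Des (936 to 1028) stood above Myh11 (904 to 912), and Lmod1 and Synpo2 changed places within overlapping ranges.

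Each of the other 9 genes is a multi-exon gene in the same annotation. The genes of the thick filament and of actin binding are Myh11 (ENSMUSG00000018830.10) on the minus strand of chromosome 16 at 14194535 to 14291372, Tagln (ENSMUSG00000032085.5) on the minus strand of chromosome 9 at 45929619 to 45936058, Cnn1 (ENSMUSG00000001349.5) on the plus strand of chromosome 9 at 22099216 to 22109630 and Smtn (ENSMUSG00000020439.17) on the minus strand of chromosome 11 at 3517523 to 3540612. The other actin is Actg2 (ENSMUSG00000059430.14) on the minus strand of chromosome 6 at 83512905 to 83536265. The filament and scaffold genes are Des (ENSMUSG00000026208.9) on the plus strand of chromosome 1 at 75360329 to 75368579, Lmod1 (ENSMUSG00000048096.7) on the plus strand of chromosome 1 at 135324807 to 135368065 and Synpo2 (ENSMUSG00000050315.14) on the minus strand of chromosome 3 at 123076519 to 123236149, and the regulator is Myocd (ENSMUSG00000020542.18) on the minus strand of chromosome 11 at 65176561 to 65269989.

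**Figure D1:**
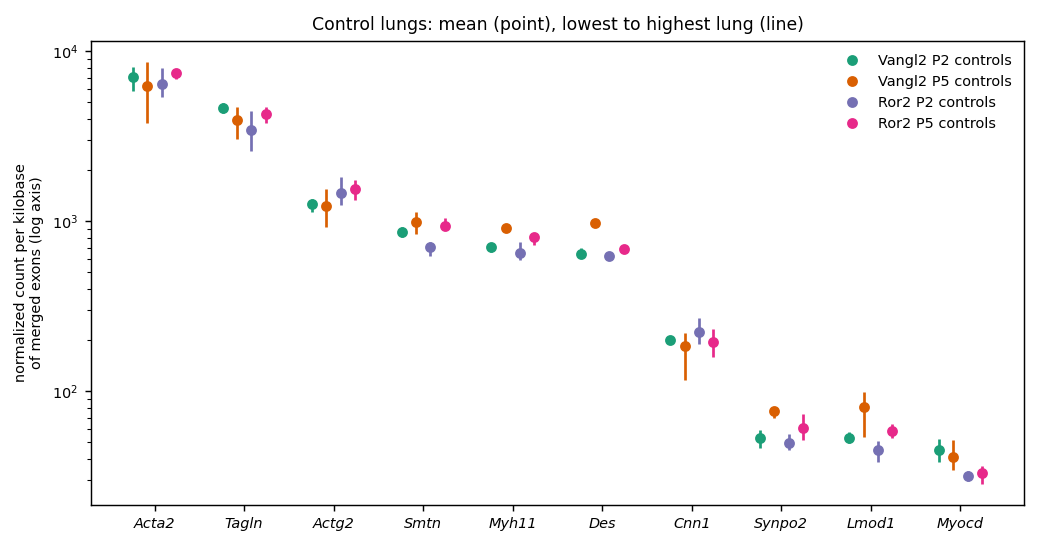
Normalized counts per kilobase of merged exons (log axis) for the 10 contractile genes in the control lungs of each comparison; points are means and lines run from the lowest to the highest control lung. Acta2 stood highest, at 7051 in the P2 Vangl2 controls, and Myocd lowest, at 44.9.

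The 2 smooth muscle actins are close in sequence to each other and to the striated muscle actins Acta1 and Actc1. The coding sequences of Acta2 and Actg2 are 84.2% identical, and between 82.6% and 85.4% identical to those of Acta1 and Actc1, yet the main transcript of neither gene shares a run of 50 bases with any of the other 3 (0 of 1986 runs in Acta2 and 0 of 1284 in Actg2). Exons on the opposite strand overlap 3 of the genes. Tagln shares up to 1241 exon bases with Gm48529 and 108 with Pcsk7, Smtn shares 394 with Gm11946 and 39 with Gm11947, and Des shares 220 with Gm15179. Since it is not given here whether counting used strand, the values of Tagln, Des and Smtn may hold some reads of these neighbours.

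Since the 10 genes are known for a shared regulator, the DNA before their start sites was searched. RefSeq start sites with sequence (GRCm38.p6) matched 6 of the 10: Acta2, Cnn1, Lmod1, Des, Smtn and Synpo2. Over the 250 bases before the start, no CArG box was found in the 6, against 1.47% of all 32851 promoters, and no match says only that these letters are not in this window. When 1 of the 6 inner bases was allowed to be G or C, the element was found in Acta2, at 2 places, and in 7.24% of all promoters. The letters CATTCC, the core of the element bound by TEAD factors, or GGAATG where they lie on the other strand, were found in Acta2, Smtn and Lmod1 and in 12.6% of all promoters. These 3 genes are shown because they hold the matches, and because Smtn fell in P2 Vangl2 mutants while Lmod1 had a higher mean there. Capitals mark the matches, 5′ to 3′ on the strand of the gene. Acta2 is shown only as 30 bases around each match, since 217 of its 250 bases lie within the first exon of the longest GENCODE model.
Acta2, chr19:34255502-34255531, minus strand, from -158 to -129: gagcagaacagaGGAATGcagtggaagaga
Acta2, chr19:34255438-34255467, minus strand, from -94 to -65: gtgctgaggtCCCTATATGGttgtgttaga
Acta2, chr19:34255388-34255417, minus strand, from -44 to -15: cgtctttgctCCTTGTTTGGgaagcgagtg
Smtn, chr11:3539324-3539542, minus strand, from -250 to -32: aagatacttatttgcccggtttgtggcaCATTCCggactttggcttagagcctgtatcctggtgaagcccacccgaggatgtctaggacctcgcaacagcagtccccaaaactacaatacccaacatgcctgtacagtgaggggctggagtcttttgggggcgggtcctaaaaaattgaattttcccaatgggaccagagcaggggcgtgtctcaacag
Lmod1, chr1:135324563-135324806, plus strand, from -250 to -7: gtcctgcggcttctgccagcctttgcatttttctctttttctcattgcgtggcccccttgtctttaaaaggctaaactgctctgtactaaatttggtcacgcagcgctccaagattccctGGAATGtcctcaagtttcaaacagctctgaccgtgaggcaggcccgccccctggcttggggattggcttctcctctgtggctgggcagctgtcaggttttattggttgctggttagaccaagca
The matches are a description of the sequence and say nothing of binding in these lungs.

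In Vangl2 mutants at P2 the contractile genes stood lower, and 2 of the 10 passed the threshold. Myh11, the smooth muscle myosin heavy chain, fell to 0.715 of the control level and Smtn, smoothelin, fell to 0.701. Synpo2 and Actg2 came close, and Lmod1 was the single gene with a higher mean. Of all 17444 genes tested, 2.09% were called lower and 1.5% were called higher, against 2 of 10 and 0 of 10 here. All 3 mutants lay below all 3 controls for 6 of the 10 genes and above them for 0, against 14.9% and 14.6% of all genes. At an unadjusted p under 0.05, 7 of the 10 were lower and 0 higher, against 10.8% and 11.7% of all genes. The median log2 fold change of the 10 was -0.50, beside 0.0011 for all genes.

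Myh11 had 4993, 5306 and 5682 normalized counts in the P2 Vangl2 controls and 3889, 3657 and 3870 in the mutants. The mutants were tightly grouped and lay well below the lowest control. The log2 fold change was -0.48 ± 0.0899 (SE; adjusted p = 0.0339, limma). Smtn gave 3802, 3531 and 4069 in controls against 2533, 2513 and 2961 in mutants, again without overlap (log2 fold change -0.51 ± 0.104, adjusted p = 0.0418). For both genes the exact two-sided permutation test gave p = 0.1, the smallest that 3 lungs against 3 allow.

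The actins spread more widely between lungs. Acta2 was at 12869, 15848 and 17738 in controls and at 6590, 8325 and 13472 in mutants, so that 1 mutant reached into the control range. Its log2 fold change was the most negative of the 10, at -0.76 ± 0.253, and did not pass (adjusted p = 0.136). Actg2 had 2088, 1755 and 2095 in controls and 1129, 1395 and 1502 in mutants, with no overlap (-0.57 ± 0.133, adjusted p = 0.0608).

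Synpo2 missed the threshold by little, with 610, 779 and 695 in controls and 410, 428 and 501 in mutants (-0.63 ± 0.138, adjusted p = 0.0504). Myocd, the coactivator of SRF, had 248, 339 and 280 in controls and 203, 182 and 198 in mutants (-0.56 ± 0.165, adjusted p = 0.105). Both genes had all mutants below all controls. Cnn1 did so by a small margin, with controls from 519 to 564 and mutants from 416 to 487 (-0.28 ± 0.116, adjusted p = 0.209). Tagln and Des overlapped between groups, and their log2 fold changes were -0.25 ± 0.206 and -0.21 ± 0.118.

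Lmod1 ran the other way in this comparison, unevenly. It had 197, 205 and 226 in controls and 421, 286 and 176 in mutants, so that 2 mutants lay above and 1 below all controls (0.40 ± 0.292, adjusted p = 0.449). Mutant replicate 1, with the highest Lmod1, had the lowest Acta2, Actg2 and Tagln of the 6 lungs. The myofibroblast genes Pdgfra (the PDGF receptor of septal myofibroblasts) and Eln (elastin) had the same order of mutants as Lmod1: Pdgfra was at 4988, 2985 and 2239 in mutant replicates 1 to 3 and Eln at 196873, 113003 and 88638. Eln controls lay between 54366 and 67288 (1.10 ± 0.292, adjusted p = 0.0828), and Pdgfra controls between 2375 and 3482 (0.13 ± 0.278, adjusted p = 0.809). These 2 genes do not stand for all 12 alveolar myofibroblast markers followed. Of the 12, 8 had negative and 4 had positive log2 fold changes here, with a median of -0.11.

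The count of 2 genes changed when 1 lung was left out. It was 0 without each of control replicates 1, 2 and 3, and 1, 0 and 5 without mutant replicates 1, 2 and 3. Calls over all genes, 364 lower and 262 higher with every lung, moved too. Without the controls in turn they were 81, 0 and 0 lower and 34, 1 and 1 higher. Without the mutants in turn they were 307, 1 and 1234 lower and 207, 28 and 1074 higher. The log2 fold changes ran from -0.53 to -0.44 for Myh11 and from -0.59 to -0.46 for Smtn. With the scale set by each lung's total the count of contractile genes was 4, and 446 lower and 225 higher were called over all genes. Of the 8 markers of lung epithelium, 7 had positive log2 fold changes and 1 a negative value, Sftpc (-0.05). Limma called 2 of the 8 higher, Hopx (0.75 ± 0.154, adjusted p = 0.0436) and Epcam (0.51 ± 0.111, adjusted p = 0.0494), against 1.5% of all genes. The summed normalized counts of the 8 markers were 396748 to 488166 in controls and 492699 to 607527 in mutants. Their part in the lower contractile genes was not tested.

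In Vangl2 mutants at P5 Myocd, Smtn and Synpo2 had the most negative log2 fold changes, but without a block 0 of the 10 passed the threshold of limma in either direction, while 4 had an unadjusted p under 0.05, all lower (8.35% of all genes were lower and 10.4% higher at that p). Among all 17406 genes, 0.0287% were called lower and 0.534% higher. All mutants lay below all controls for Myh11, Des, Smtn, Myocd and Synpo2, which is 5 of 10 against 12.5% of all genes, and above them for 0 of 10 against 13.2%. The median log2 fold change was -0.56, beside 0.0030 for all genes.

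At this age the deviations of same-numbered control and mutant lungs from their group means were correlated over all genes. The labels give no pairing, and the block is given here because of this correlation in the same data. With the number as a block limma called 3 of the 10 lower: Synpo2 (adjusted p = 0.0122), Smtn (adjusted p = 0.0184) and Myocd (adjusted p = 0.029). The block raised the share of all genes called lower to 3.48% and called higher to 5.47%. Myocd had 330, 220 and 244 normalized counts in controls and 152, 139 and 92.9 in mutants, and its mutant level was 0.482 of the control level (log2 fold change -1.05 ± 0.261, adjusted p = 0.109 without the block). Synpo2 gave 1058, 1023 and 915 against 585, 607 and 474 (-0.85 ± 0.148, adjusted p = 0.0575 without the block). Smtn gave 4937, 4406 and 3703 against 3399, 2299 and 1737 (-0.86 ± 0.243, adjusted p = 0.132 without the block). In each of the 3 genes the highest mutant lay below the lowest control.

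Myh11 controls were nearly the same, at 6871, 6933 and 6915, and the mutants trailed off from 5721 to 4741 and 2892 (-0.69 ± 0.240, adjusted p = 0.189). Acta2 shows how far lungs of 1 group could differ, with 19014, 8323 and 13982 in controls and 17029, 7621 and 5330 in mutants. In both groups replicate 1 was the highest, and each mutant lay below the control of the same number. The log2 fold change was -0.56 ± 0.449 (adjusted p = 0.549, and 0.196 with the replicate block). Actg2 followed Acta2, at 2417, 1438 and 1903 in controls and 2021, 1245 and 813 in mutants, again lower within each number (-0.56 ± 0.326, adjusted p = 0.395, and 0.119 with the block).

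Des controls lay between 3515 and 3859 and mutants between 2115 and 3473 (-0.39 ± 0.189, adjusted p = 0.314). Tagln (-0.09 ± 0.263), Cnn1 (0.03 ± 0.301) and Lmod1 (-0.33 ± 0.263) overlapped between groups. Lmod1 thus had no higher mean at P5, with 213, 391 and 346 in controls and 211, 299 and 231 in mutants. Pdgfra was at 3680, 5100 and 4366 in controls and 2565, 2532 and 2025 in mutants, without overlap (-0.88 ± 0.168, adjusted p = 0.0663, and 0.0185 with the block). Eln overlapped (-0.43 ± 0.372).

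Mutant replicate 3 was the lowest of the 6 lungs for 8 of the 10 genes, and without it the median of the 10 was -0.27. Without mutant replicate 1, the highest mutant for Acta2, Myh11 and Smtn, the median was -0.90. Mutant replicate 3 also held skeletal muscle RNA: the summed normalized counts of 10 skeletal muscle markers were 4723 in that lung and 103 to 197 in the other 5 lungs. Lung epithelium markers were again higher, with sums of 207645 to 345433 in controls and 388062 to 521839 in mutants, though 0 of the 8 passed (unadjusted p under 0.05 for 4, all higher, against 10.4% of all genes). Of 7 endothelial markers 0 were called, and 6 were lower at an unadjusted p under 0.05, against 8.35% of all genes, with sums of 72335 to 80398 in controls and 41192 to 65887 in mutants. The part of these cell types in the contractile values was not tested.

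In Ror2 mutants at P2 no contractile gene passed the threshold, as did no gene of all 17537 tested: limma called 0% lower and 0% higher. Of the 10 genes, 1 had an unadjusted p under 0.05 in each direction, Smtn lower and Lmod1 higher, against 9.71% and 9.56% of all genes. On the recovered reads, edgeR called 0 of the 10 and DESeq2 called 0. Over all genes limma gave 1703 lower and 1676 higher at an unadjusted p under 0.05, edgeR called 0, and DESeq2 called 326 lower and 477 higher. The mutants lay below all controls for 0 of 10 genes, against 12.2% of all genes, and above them for Lmod1, 1 of 10 against 13.4%. The median log2 fold change was -0.34, beside -0.0059 for all genes.

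Acta2 had the most negative log2 fold change. It was at 17434, 13046 and 11819 in controls and at 10538, 12998 and 5577 in mutants (-0.60 ± 0.309, adjusted p = 0.318). Mutant replicate 3 was the lowest of the 6 lungs for 9 of the 10 genes, all but Lmod1. Without that lung the median of the 10 was -0.06.

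Synpo2 had 634, 729 and 591 in controls and 411, 655 and 303 in mutants (-0.58 ± 0.262, adjusted p = 0.277). Without mutant replicate 2, the lung that reached the control range, limma called Synpo2 lower (adjusted p = 0.0451). Leaving out the overlapping lung sets the groups apart in advance, so nothing is concluded from that call. Over all genes 415 were then called lower and 434 higher, against 0 and 0 with every lung. Smtn had 3316, 3243 and 2729 in controls and 2553, 2757 and 1930 in mutants (-0.37 ± 0.147, adjusted p = 0.242). Actg2 (-0.45 ± 0.255), Myocd (-0.36 ± 0.248) and Myh11 (-0.32 ± 0.247) shared the low value in mutant replicate 3, at 1109, 107 and 2611. Des (-0.14 ± 0.0994), Cnn1 (-0.13 ± 0.170) and Tagln (0.0021 ± 0.230) did not pass and overlapped between groups.

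Lmod1 again had a higher mean in mutants. It was at 201, 151 and 180 in controls and 278, 252 and 217 in mutants, so that all 3 mutants were above all controls (0.49 ± 0.167, adjusted p = 0.213, exact permutation p = 0.1). Pdgfra (0.27 ± 0.162, adjusted p = 0.385) and Eln (0.55 ± 0.267, adjusted p = 0.297) had higher means too, and their groups overlapped. The lung with the lowest contractile values had the highest Pdgfra of the 6, at 3935, and the highest Eln, at 140079. Its epithelial marker sum was also the highest, at 490198 against 313316 to 377151 in the other 5 lungs, and the part of this in its contractile values was not tested.

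In Ror2 mutants at P5 limma called 0 of the 10 genes, where 0.064% of all 17175 genes were called lower and 0.064% higher. At an unadjusted p under 0.05, 2 of the 10 were lower and 0 higher, against 8.36% and 10.1% of all genes. All mutants lay below all controls for Smtn and Synpo2, 2 of 10 genes, against 14.3% of all genes, and above them for 0 of 10, against 15.6%. The median log2 fold change was -0.19, beside 0.0040 for all genes.

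Smtn had 4545, 3875 and 3944 normalized counts in controls and 2571, 3183 and 3618 in mutants (-0.41 ± 0.128, adjusted p = 0.179). Synpo2 had 967, 679 and 729 in controls and 518, 618 and 572 in mutants (-0.46 ± 0.141, adjusted p = 0.177). Both stayed negative whichever lung was left out, from -0.52 to -0.28 for Smtn and from -0.56 to -0.31 for Synpo2. The other 8 genes had overlapping groups.

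Acta2 is an example, with 16710, 17297 and 15162 in controls and 10113, 14444 and 18898 in mutants (-0.22 ± 0.205, adjusted p = 0.578). Among the lungs with a value, mutant replicate 1 was the lowest for all 10 genes, and mutant replicate 3 was the highest for 6. Actg2, Tagln and Cnn1 have no value in control replicate 1. Without mutant replicate 1 the median of the 10 was 0.05, and without control replicate 2 it was -0.05. Myh11 (-0.29 ± 0.195), Myocd (-0.20 ± 0.145), Lmod1 (0.19 ± 0.192) and Des (-0.0049 ± 0.0891) did not pass. With 2 control values, Cnn1 (-0.19 ± 0.361), Actg2 (-0.05 ± 0.322) and Tagln (-0.01 ± 0.145) did not pass either.

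Pdgfra and Eln, also with 2 control values, had all mutants below the controls, at -0.58 ± 0.140 (adjusted p = 0.141) and -0.42 ± 0.174 (adjusted p = 0.261), where 0.2 is the smallest exact p that 2 lungs against 3 allow. The lung low in all 10 genes had the highest sum of 12 cardiac muscle markers, 17983 against 1564 to 7505 in the other 4 lungs with a complete sum, and of 5 mesothelium markers, 8597 against 2119 to 2876. The part of this in its contractile values was not tested. Epithelial marker sums were 282324 to 293074 in 2 controls and 315906 to 396756 in mutants.

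**Figure D2:**
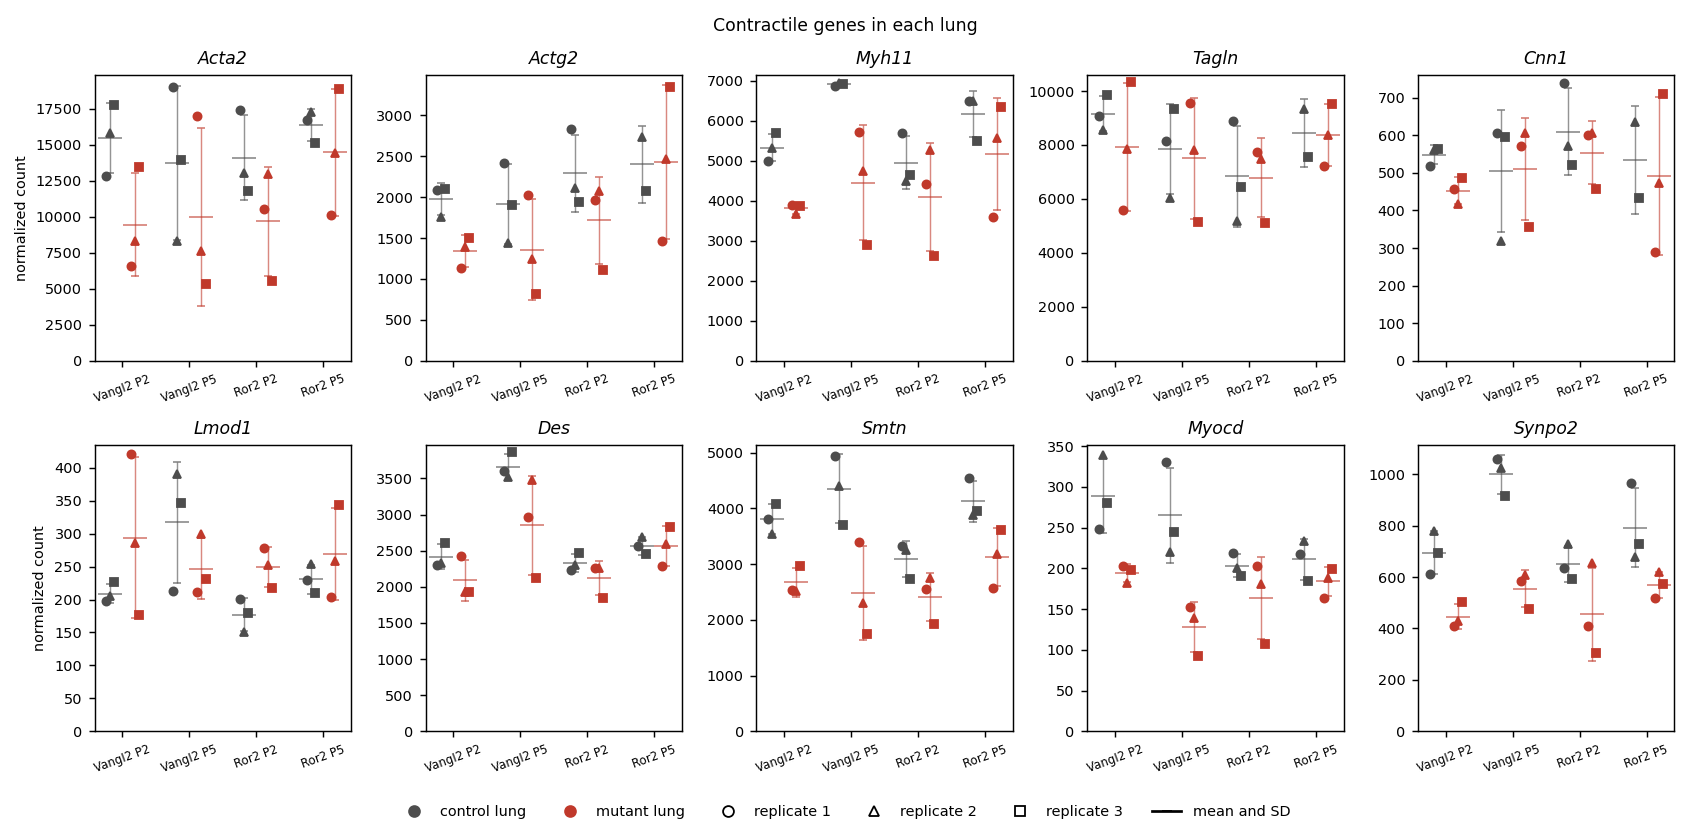
Normalized counts of the 10 contractile genes in every lung, with the mean and SD of each group (grey: control, red: mutant; symbols give the replicate number). Synpo2 in P5 Vangl2 lungs shows the clearest gap, with controls from 915 to 1058 and mutants from 474 to 607, while Acta2 overlapped between groups in all 4 comparisons.

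**Figure D3:**
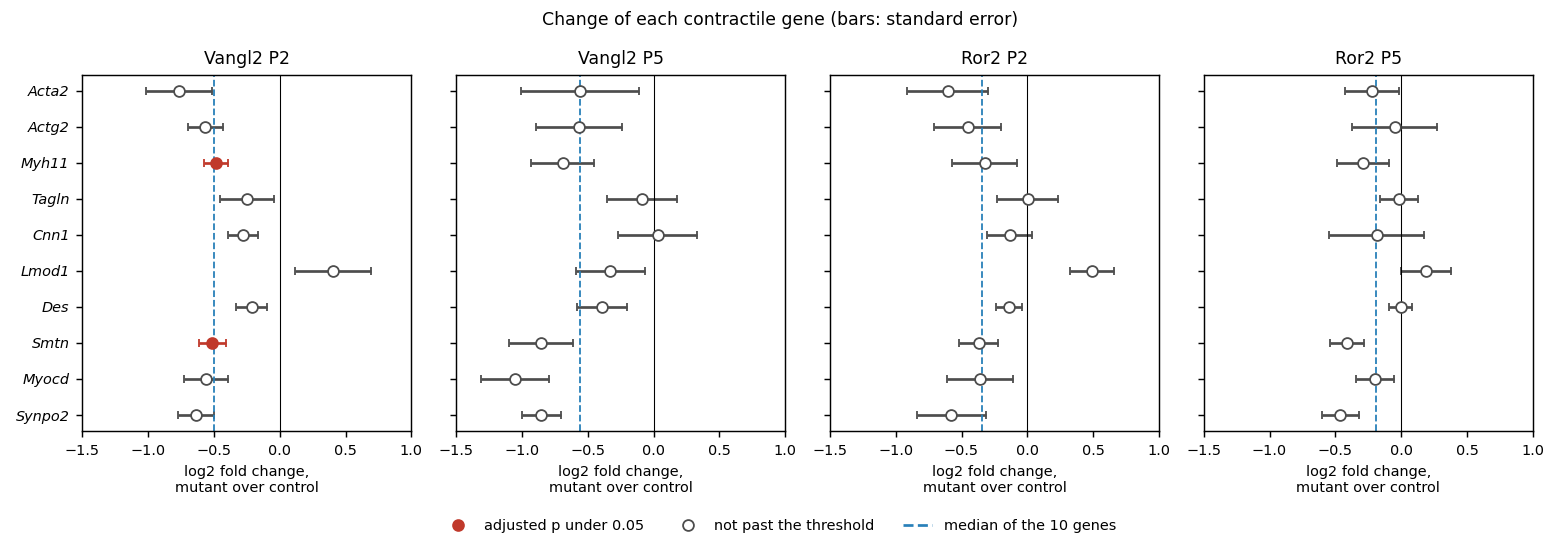
Log2 fold change of each contractile gene, mutant over control, with its standard error from limma in the 4 comparisons; the dashed line is the median of the 10 genes. Only Myh11 and Smtn in P2 Vangl2 mutants, at -0.48 and -0.51, are drawn as past the threshold, and Lmod1 lies to the right of 0 in 3 panels.

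Smtn and Synpo2 had negative log2 fold changes in all 4 comparisons, as did Acta2, Actg2, Myh11, Des and Myocd, though in P5 Ror2 mutants Des was 0.0287 when lungs were scaled to the same total, Actg2 was 0.2725 with the replicate block or without mutant replicate 1, and Acta2 was 0.0138 and Des 0.0767 without mutant replicate 1. Actg2 there also had a slightly higher mean in mutants, 2428 against 2402 normalized counts. The 4 comparisons use separate lungs. Whether a change differed between 2 comparisons was tested over their 12 lungs, and limma called 0 of the 10 genes in each of 4 such tests. Of all genes, 0% were called for P5 against P2 in Vangl2 mutants, 0% for P5 against P2 in Ror2 mutants, 0% for Ror2 against Vangl2 mutants at P2 and 0.0118% for Ror2 against Vangl2 mutants at P5. The number of contractile genes with an unadjusted p under 0.05 was 0, 0, 0 and 1, against 8.44%, 9.51%, 4.6% and 4.73% of all genes.

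That 1 gene was Myocd, whose change at P5 was -0.20 in Ror2 mutants and -1.05 in Vangl2 mutants, a difference of 0.85 ± 0.304 (adjusted p = 0.938). At P2, the changes in Ror2 mutants lay above those in Vangl2 mutants for all 10 genes, by 0.05 to 0.25, with adjusted p from 0.979 to 0.996. Most of the genes varied together over the lungs, as given below, so this shared direction is not 10 separate observations. Lmod1 had the lowest p between the ages, with P5 below P2 by 0.73 ± 0.422 in Vangl2 mutants (adjusted p = 0.632) and by 0.30 ± 0.265 in Ror2 mutants (adjusted p = 0.724). These tests did not resolve any difference between ages or mutants in the 10 genes.

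The lungs of a group differed from each other along a shared pattern. After each gene's log2 value was centred on its group mean, 9 of the 10 genes followed the mean of the others over the lungs, with Pearson's r from 0.53 for Synpo2 to 0.94 for Myh11 over 23 or 24 lungs. Acta2 and Actg2 were the closest pair (r = 0.91). Lmod1 did not share the pattern, with r = 0.04 to the mean of the other 9. It followed Pdgfra (r = 0.68) and Eln (r = 0.62), to which Acta2 had r = -0.19 and -0.45. Des lay between, with r = 0.64 to the other 9 and 0.39 to Pdgfra. These correlations describe lungs that share tables and size factors, and carry no test. The P2 Vangl2 mutants spread most widely in Lmod1 and Pdgfra and weigh most in their r of 0.68. In the P2 Ror2 mutants the order was reversed. There Lmod1 was at 278, 252 and 217 in replicates 1 to 3, and Pdgfra at 2600, 3079 and 3935.

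**Figure D4:**
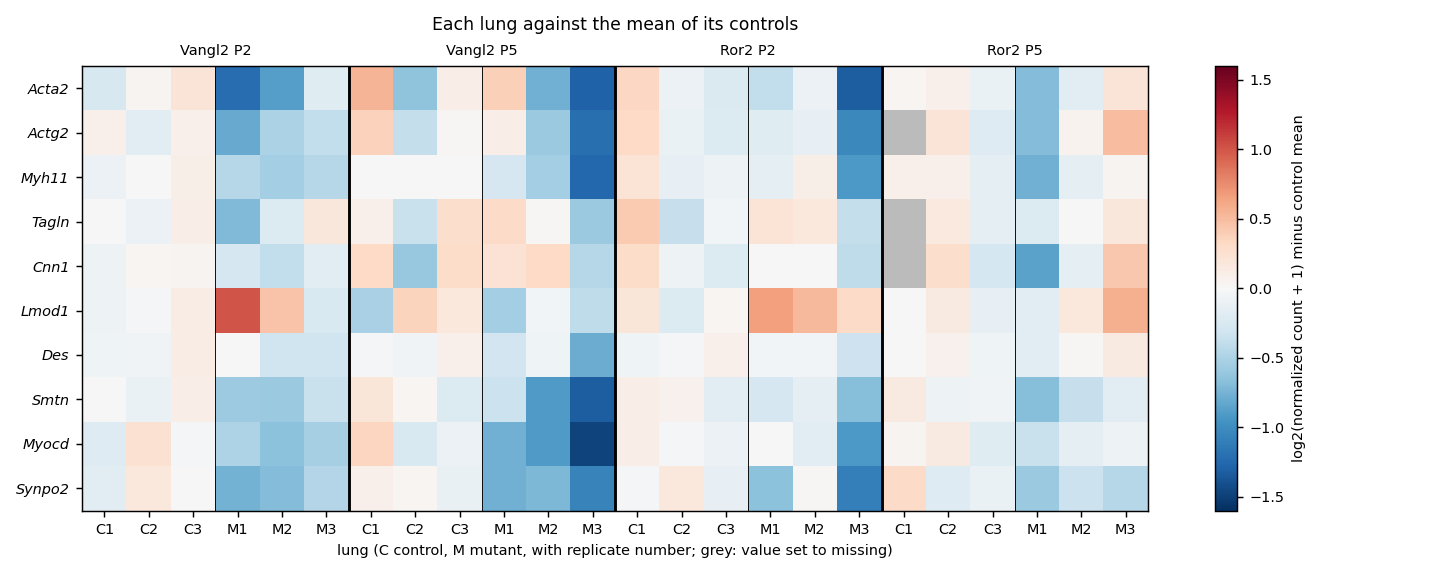
Log2(normalized count + 1) of each contractile gene in each lung minus the mean of that table's controls (blue: lower, red: higher, grey: missing). Low columns stand out for mutant replicate 3 of the P5 Vangl2 and P2 Ror2 tables, lowest for 8 and 9 of 10 genes, while Lmod1 is red in 2 P2 Vangl2 mutants and in all 3 P2 Ror2 mutants.

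**Figure D5:**
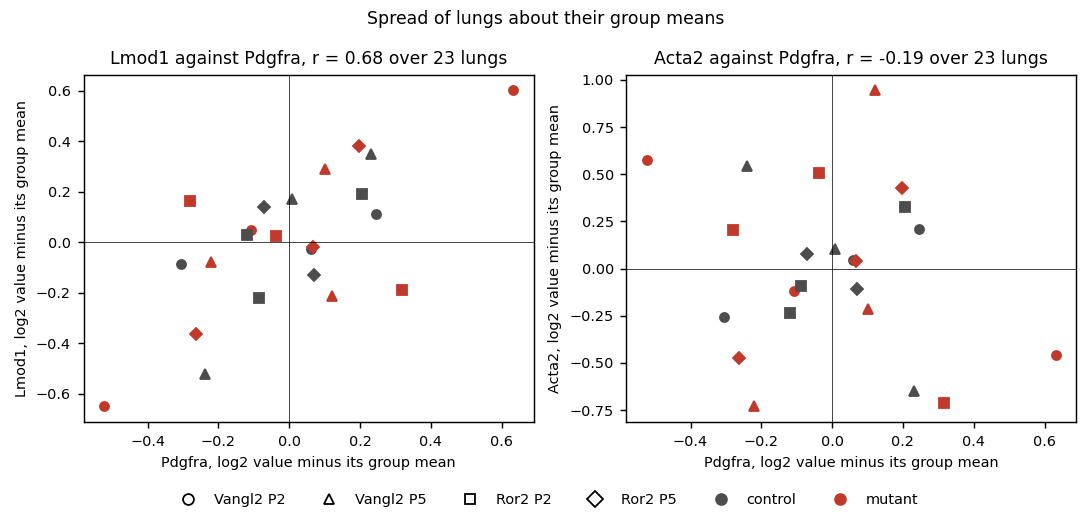
Each point is 1 of 23 lungs, placed by its log2 value minus its group mean for Pdgfra (x) and for Lmod1 or Acta2 (y); symbols give the comparison and colours the group. Lmod1 lies along a rising line (r = 0.68) and Acta2 does not (r = -0.19). The P2 Vangl2 mutants spread most widely along the Lmod1 line, and the P2 Ror2 mutants run against it.

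Of 16709 genes outside the 10, the 5 whose centred pattern was most like their mean were Col1a2 (r = 0.920), Prss35 (r = 0.916), Flna (r = 0.911), Fkbp10 (r = 0.907) and Gxylt2 (r = 0.901). Col1a2 encodes a chain of type I collagen, Fkbp10 a folding enzyme for collagen, and Flna filamin, which crosslinks actin. Myl9, the regulatory light chain of smooth muscle myosin, was in place 26 (r = 0.864). Mylk, the kinase that activates this light chain, was in place 524 (r = 0.682). Pdgfra (r = 0.054) and Eln (r = -0.223) did not resemble the mean of the 10.

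Among other genes of the contraction machinery, Mylk and Myl9 had all mutants below all controls at P2 in Vangl2 mutants, with log2 fold changes of -0.33 ± 0.106 (adjusted p = 0.122) and -0.43 ± 0.117 (adjusted p = 0.0874). At P5 in Vangl2 mutants they were at -0.70 ± 0.261 and -0.54 ± 0.242, at P2 in Ror2 mutants at -0.13 ± 0.138 and -0.66 ± 0.190, and at P5 in Ror2 mutants at -0.30 ± 0.0981 and -0.15 ± 0.0959. Myl9 in P2 Ror2 mutants had 5195, 4830 and 4779 in controls against 3468, 3871 and 2249 in mutants (adjusted p = 0.203). None of these 8 values passed.

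Of 25 genes of the contractile apparatus outside the 10, Mylk and Myl9 among them, limma called 0 in all 4 comparisons. At an unadjusted p under 0.05, 7 were lower and 2 higher in P2 Vangl2 mutants, 5 and 0 in P5 Vangl2 mutants, 4 and 4 in P2 Ror2 mutants, and 6 and 2 in P5 Ror2 mutants. Over all genes, the shares at that p in the 4 comparisons were 10.8%, 8.35%, 9.71% and 8.36% lower and 11.7%, 10.4%, 9.56% and 10.1% higher, and several of these counts lie near them. The medians were -0.18, -0.29, -0.13 and -0.13. In that order of comparisons, Flna, one of the most abundant, was at -0.46 ± 0.126, -0.54 ± 0.227, -0.19 ± 0.168 and -0.22 ± 0.144. Tns1, tensin, which ties actin to focal adhesions, was at 0.56 ± 0.236, -0.10 ± 0.213, 0.64 ± 0.2 and 0.01 ± 0.119.

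Myocd acts with other regulators. Of 10 measured genes for SRF and its partners, 0 were called in all 4 comparisons, and at an unadjusted p under 0.05 there were 0 lower and 2 higher in P2 Vangl2 mutants, 3 and 0 in P5 Vangl2 mutants, 1 and 2 in P2 Ror2 mutants, and 1 and 1 in P5 Ror2 mutants, beside between 8.35% and 11.7% of all genes in 1 direction. Medians were 0.01, -0.32, 0.11 and -0.16. Foxf1, a mesenchymal transcription factor and the most abundant of this list, was at -0.19 ± 0.123, -0.50 ± 0.227, 0.13 ± 0.131 and -0.33 ± 0.179. Elk3, an SRF partner of the ETS family, was at -0.18 ± 0.0810, -0.60 ± 0.199, 0.02 ± 0.0745 and -0.03 ± 0.0678. Srf itself was at 0.0079 ± 0.130, -0.27 ± 0.252, -0.10 ± 0.0917 and -0.19 ± 0.116, with overlapping groups in all 4.

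Of 17 measured receptors, channels and enzymes that set contraction and relaxation, 0 were called in all 4 comparisons (16 could be tested in P2 Ror2 lungs). At an unadjusted p under 0.05, 5 were lower and 0 higher in P2 Vangl2 mutants, 4 and 0 in P5 Vangl2 mutants, 0 and 2 in P2 Ror2 mutants, and 3 and 0 in P5 Ror2 mutants, beside 10.8%, 8.35%, 9.71% and 8.36% of all genes lower and 11.7%, 10.4%, 9.56% and 10.1% higher. Medians were -0.17, -0.28, -0.09 and -0.09. Pde5a, which breaks down cyclic GMP, was at -0.61 ± 0.166 (adjusted p = 0.0887) in P2 and -0.78 ± 0.287 (adjusted p = 0.207) in P5 Vangl2 mutants, and at -0.20 ± 0.121 and -0.35 ± 0.121 in P2 and P5 Ror2 mutants. All mutants lay below all controls for Pde5a except in P2 Ror2 lungs.

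Markers of the neighbouring mesenchymal cells were read in the same way. Of 12 alveolar myofibroblast markers, 1 was called lower in P2 Vangl2 mutants (P2ry14, a nucleotide receptor, -0.85 ± 0.158, adjusted p = 0.0339), against 2.09% of all genes. In P5 Ror2 mutants 1 was called lower (Stc1, stanniocalcin, -1.04 ± 0.104, adjusted p = 0.0301), against 0.064% of all genes. At an unadjusted p under 0.05, 1 was lower and 1 higher in P2 Vangl2 mutants (10.8% and 11.7% of all genes), and the median was -0.11. In P5 Ror2 mutants 5 were lower and 1 higher at that p (8.36% and 10.1% of all genes), and the median was -0.305. In P5 Vangl2 mutants 0 of the 12 were called, but all 12 log2 fold changes were negative, 7 with an unadjusted p under 0.05 (8.35% of all genes were lower at that p), and the median was -0.66. In P2 Ror2 mutants 0 were called (2 lower and 0 higher at an unadjusted p under 0.05, against 9.71% and 9.56% of all genes) and the median was -0.03.

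Of 10 matrix fibroblast markers, Dpt (dermatopontin, -1.07 ± 0.157, adjusted p = 0.0289) and Col1a1 (type I collagen, -0.64 ± 0.126, adjusted p = 0.0394) fell in P2 Vangl2 mutants, and 0 were called in the other 3 comparisons, where 4, 5 and 4 were lower and 0, 0 and 0 higher at an unadjusted p under 0.05. Of 9 pericyte markers, Abcc9, a subunit of potassium channels, rose in P2 Vangl2 mutants (0.67 ± 0.121, adjusted p = 0.0326) and 0 were called in the others, where 5, 1 and 5 were lower and 0, 2 and 0 higher at an unadjusted p under 0.05. The matrix fibroblast list was mixed in P2 Vangl2 mutants: 5 of the 10 log2 fold changes were negative and 5 positive, 4 were lower and 2 higher at an unadjusted p under 0.05 (10.8% and 11.7% of all genes), and the median was -0.06. The shares of all genes at that p in the other 3 comparisons were 8.35%, 9.71% and 8.36% lower and 10.4%, 9.56% and 10.1% higher. Past the adjusted threshold, 2.09% of all genes were called lower and 1.5% higher in P2 Vangl2 mutants. In P5 Vangl2, P2 Ror2 and P5 Ror2 mutants the matrix fibroblast medians were -0.41, -0.59 and -0.31. Of these 10 markers, 6, 9 and 7 had negative log2 fold changes. The pericyte medians there were -0.58, 0.05 and -0.29, and the medians of the 10 contractile genes were -0.56, -0.34 and -0.19.

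Striated muscle was present in all lobes at a level that varied within groups. The 12 cardiac muscle markers, which can come from the muscle sleeves of the lung veins or from attached heart tissue, summed to between 1564 and 24955 normalized counts, and limma called 0 of them in each comparison. The number at an unadjusted p under 0.05 was 0, 0, 0 and 1, the last of them higher. Desmin is also made in striated muscle. Apart from P5 Vangl2 mutant replicate 3, the 10 skeletal muscle markers summed to between 103 and 778. Of these markers 9, 10, 8 and 8 could be tested in P2 Vangl2, P5 Vangl2, P2 Ror2 and P5 Ror2 lungs. Limma called 0 of them, and at an unadjusted p under 0.05, 0, 0, 2 and 1 were lower and 0, 1, 0 and 0 higher. The shares of all genes at that p, beside both marker lists, were 8.35% to 10.8% lower and 9.56% to 11.7% higher. In the P2 Ror2 lungs 1 of the skeletal muscle markers, Myh4, was at 0 in every lung. The part of striated muscle in the values of Des was not tested.

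Scaled to each control lung's total as CPM, Synpo2 in the Vangl2 tables was at 30.2, 39.4 and 35.0 in P2 controls and at 53.8, 52.9 and 49.9 in P5 controls, Des was at 114, 118 and 131 against 184, 182 and 211, and Myh11 was at 247, 268 and 286 against 350, 359 and 377. These 3 of the 10 genes, chosen after their values were seen, had all P5 controls above all P2 controls, against 10.1% of all genes, and the other 7 did not. In the Ror2 tables Synpo2 was at 33.9, 40.0 and 31.9 at P2 and at 34.8 and 37.8 at P5, Des at 119, 126 and 133 against 138 and 127, and Myh11 at 305, 247 and 251 against 334 and 285, so the ages overlapped there. The tables were normalized separately, and these values are given without a test.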

How the data were processed

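RNA was prepared by the authors from left lung lobes with TRIzol and the RNeasy kit and sequenced on Illumina HiSeq instruments. The signal values deposited by the authors are counts of reads on each gene after size-factor scaling, done separately in every table of 6 lungs, and are named normalized counts. The submitters' processing notes name DESeq2 and mm10, and the aligner, counter and annotation are not given in the sources used here. The deposited fold changes, test statistics, p-values and adjusted p-values of the authors were not used.

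Whole reads were recovered in 21 of 24 lungs by dividing each value by the step between values, and 100% of values lay within 0.02 of a whole read. In P5 Ror2 control replicate 1, values of genes on chromosomes 5 to 9 and X were set to missing (94.6% of well-expressed genes there are listed at 0). From each table, 4 rows under repeated date-like names were left out.

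Each comparison was fitted with limma 3.58.1 in R 4.3.3 (lmFit and eBayes, prior variance following the mean) after log2(normalized count + 1) transformation, keeping genes that reached 1 normalized count in 3 or more lungs. P-values were two-sided and adjusted by Benjamini-Hochberg across every gene kept, and the threshold was 0.05. Fold changes are on the log2(normalized count + 1) scale. Differences between comparisons were fitted over 12 lungs with group means, and named genes were also given exact two-sided permutation p-values. Same-numbered lungs were checked for pairing by the correlation of their deviations from group means. It was 0.486, 0.471 and 0.290 in the P5 Vangl2 table, where the blocked fit is therefore given, and was not above 0.1 for every number in the other 3 tables. Promoters were searched on both strands, and a CArG box was read as CC, 6 bases of A or T, and GG. Simulated counts were made only for the P2 comparisons, with lungs drawn independently, and the blocked fit was not run on them. Their outcome is not given here. Alternatives were other pseudocounts, filters and scalings, a joint fit, a replicate block, leaving out each lung, and edgeR 4.0.16 and DESeq2 1.42.0 on recovered reads at P2.

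The 10 genes and all lists were chosen with earlier results of these data known. All 10 were named, with Mylk, Myl9, Pdgfra and Eln, and from each list at most 3 called genes of largest change or, with none called, up to 2 of the most abundant. Srf, and the gene of lowest p in each difference between comparisons, were chosen after the values were seen. Per-kilobase levels used merged exons of GENCODE M21, and promoters came from RefSeq (GRCm38.p6).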

Additional observations from a re-analysis of the deposited data

How the results depend on the processing

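The number of contractile genes called in P2 Vangl2 mutants, 2, was 4 with lungs scaled to the same total, 0 with all 24 lungs in 1 fit and 5 with DESeq2 on recovered reads, and ran from 0 to 5 with 1 lung left out. In P5 Vangl2 mutants the count of 0 became 1 with lungs scaled to the same total, 3 with all 24 lungs in 1 fit and 3 with the replicate block. In P2 Ror2 mutants it ran from 0 to 1 with 1 lung left out. The cause was not tested. With 1 lung left out, calls over all genes in P2 Vangl2 mutants ran from 0 lower and 1 higher to 1234 lower and 1074 higher. Over all genes, the block moved the calls in P5 Vangl2 mutants from 5 lower and 93 higher to 606 lower and 952 higher, and DESeq2 moved those in P2 Vangl2 mutants from 364 lower and 262 higher to 920 lower and 1081 higher, with edgeR at 382 lower and 259 higher. With all 24 lungs in 1 fit they were 554 lower and 567 higher in P2 and 921 lower and 1011 higher in P5 Vangl2 mutants, and without mutant replicate 2 they were 415 lower and 434 higher in P2 Ror2 mutants against 0 and 0. In the tables whose numbers do not pair the lungs, the block gave 3 contractile genes for P2 Vangl2, 0 for P2 Ror2 and 0 for P5 Ror2. No difference between comparisons was called for the 10 genes with a pseudocount of 10, all 24 lungs in 1 fit, the replicate block, or any 1 of the 12 lungs left out, the last chosen after seeing the data. The other alternatives were not run on these differences. edgeR and DESeq2 were not run on the P5 tables, where 3 lungs gave no whole reads.

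Of 570 log2 fold changes of the 10 genes under alternatives, 508 kept direction and side of the threshold, 11 lost their call, 19 gained one and 32 changed sign, all of these in genes that were not called. Only Myh11 and Smtn in P2 Vangl2 mutants had a call to lose, and they were called in 10 and 9 of 15 alternatives. With lungs scaled to the same total Tagln was 0.0091 in P5 Vangl2, -0.042 in P2 Ror2 and 0.0331 in P5 Ror2 mutants, and Des was 0.0287 in P5 Ror2 mutants. Tagln in P2 Ror2 mutants was -0.0148 with edgeR and -0.0092 with DESeq2. With the replicate block, Actg2, Tagln and Cnn1 in P5 Ror2 mutants were 0.2725, 0.0886 and 0.1463. With control replicate 1 used as listed, where these genes stand at 0, Actg2, Tagln, Cnn1, Pdgfra and Eln in P5 Ror2 mutants were 3.6887, 4.3319, 2.8252, 3.5177 and 5.1649.

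With 1 lung left out, values ran as follows. In P2 Vangl2 mutants, Pdgfra ran from -0.1838 to 0.3939 and Ror2 from -0.0778 to 0.0619. In P5 Vangl2 mutants, Tagln ran from -0.2863 to 0.1636 and Cnn1 from -0.2689 to 0.2745. In P2 Ror2 mutants, Tagln ran from -0.1807 to 0.2093 and Cnn1 from -0.2412 to 0.0126. In P5 Ror2 mutants, Acta2 ran from -0.4372 to 0.0138, Actg2 from -0.3212 to 0.2725, Tagln from -0.1669 to 0.1394, Cnn1 from -0.498 to 0.1463, Lmod1 from -0.0025 to 0.3699 and Des from -0.0775 to 0.0767.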
